A study of Mus musculus with 16 samples.

Results

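The 4 arrays of Th17 cultures treated with rosuvastatin (Rsv) were compared with the 4 arrays of untreated Th17 cultures (Th17), 8 of the 16 arrays of the series. The arrays were picked by their titles, and 30920 genes, each represented by its brightest feature, were compared. By the labels, all of these cultures held CD4 T cells from spleens of male wild-type mice aged 8 weeks, of a strain written as C54BL/6, kept for 3 days in Th17 conditions. The Rsv cultures also received 20 µM rosuvastatin, and a vehicle for the untreated cultures was not named. The Th17 conditions described in the study's methods, antibodies to CD3, CD28, IFN-γ and IL-4 with TGF-β and IL-6, were thus shared by both groups. The methods name splenocytes where the labels name CD4 T cells, and the BALB/c strain for cultures of this kind, and the labels and the text differ on when and for how long the drug was given, so the length of exposure is not settled. The other arrays were 4 of cultures under the same conditions with 20 µM ezetimibe (Eze) and 4 of cultures kept out of Th17 conditions (Th0). They entered the fit as a shared measure of spread, and the Eze arrays were also compared with the Rsv arrays. Each group had 3 numbered arrays and 1 unnumbered array, here given first. The column names of the unnumbered arrays also began with another prefix than those of the numbered arrays, in all 4 groups alike, and with the prefix as a block 4304 genes were higher and 3921 lower in Rsv than in Th17 at an adjusted p under 0.05 (limma), against 4193 and 3845 without it. Nothing in the labels says that the arrays of a group came from separate mice or cultures, so the p-values measure the spread between arrays, which may be technical.

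Rosuvastatin belongs to the statins, which block the making of mevalonate. Mevalonate is the source of cholesterol and of isoprenoids, the lipid tails that anchor small GTPases to membranes. When sterols run low in the endoplasmic reticulum, the factor SREBP-2 is released and raises transcription of the pathway's own enzymes. Th17 cells are helper T cells that make IL-17, depend on the factor STAT3, and draw on glycolysis.

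Values are log2 signals, on which 1 unit is a 2-fold difference. A background limit of 6.78 was set at the 95th percentile of 23 control features with no mouse target, and 14.4% to 16.5% of genes lay above it on Rsv arrays and 15.7% to 16.5% on Th17 arrays. The lowest share, 14.4%, belonged to the unnumbered Rsv array, which also had the highest median signal, 4.37, against 4.22 to 4.30 on the other Rsv arrays and 4.16 to 4.25 on Th17 arrays. Where 1 group lay below the limit on every array, the difference is also given as a lower bound against the limit. Where both groups lay below it, the levels are given with no fold. Counts of genes below the limit go by group means. Cd4, the helper lineage coreceptor, averaged 10.11 in Rsv and 10.56 in Th17.

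The 2 groups differed widely. Of the 30920 genes, 4193 were higher in Rsv (13.6%) and 3845 were lower (12.4%) at an adjusted p under 0.05 (limma). The arrays of the groups did not overlap for 7884 genes (25.5%). Most differences were small: 332 of the higher and 486 of the lower genes passed 2-fold, 30 and 59 passed 4-fold, and 10 and 12 passed 8-fold. The median difference over all genes was 0.06 on the log2 scale, with a median standard error of 0.11. Higher genes made up 52.2% of the calls as deposited, and 35.8% when each array was first centred on its median, so a split between small rises and small falls depends on the scaling. Among the 5513 genes above the background limit in either group, 3373 were called (61.2%), against 4665 of the 25407 others (18.4%). Of these 3373, 1461 were higher and 1912 lower in Rsv. The gene lists below differ in how many members lay above the limit, so their counts are to be read beside these shares. In a bulk culture, fewer cells of a type and less RNA per cell cannot be told apart.

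The genes with the largest changes fell into recognisable kinds. With predicted genes, small RNAs and receptor gene segments left aside, the 12 that rose most included the cytokines Il2, Ifng, Il9 and Il3, the chemokines Xcl1 and Ccl3, the interferon-inducible genes Iigp1 and Ifi203, and the protease genes Gzmc and Cpa3. Il2, the T cell growth factor, read 8.39, 8.61, 8.87 and 8.70 in Rsv and 4.51, 4.09, 4.21 and 4.41 in Th17. No Rsv array came near a Th17 array, and the difference was 4.33 ± 0.12 (log2, SE, adjusted p = 3.08e-14), or at least 3.64-fold against the background limit. Akr1c18, a steroid dehydrogenase, averaged 9.08 in Rsv and 6.2 in Th17, at least 4.92-fold higher, and Serpina3f, a serpin, averaged 7.48 in Rsv and 4.51 in Th17, at least 1.63-fold higher. The 12 that fell most, with the same kinds left aside, included the heat shock genes Hspa1a and Hspa1b, the glucose transporter Slc2a3, the gap junction gene Gja1, the laminin receptor chain Itga7, the kinase Map2k6, the mucin Muc2, Enpp2, Nrn1 and Tgfb3. Ly6g, a surface antigen best known from neutrophils, read 4.55, 4.77, 4.97 and 5.16 in Rsv and 9.97, 9.86, 9.99 and 9.89 in Th17. Among the genes named by rule it changed most, and fell by 5.06 ± 0.13 (adjusted p = 1.14e-14), or at least 8.88-fold against the limit. Hspa1a and Hspa1b are near-identical copies whose features may read each other, so their separate values are uncertain.

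**Figure D1:**
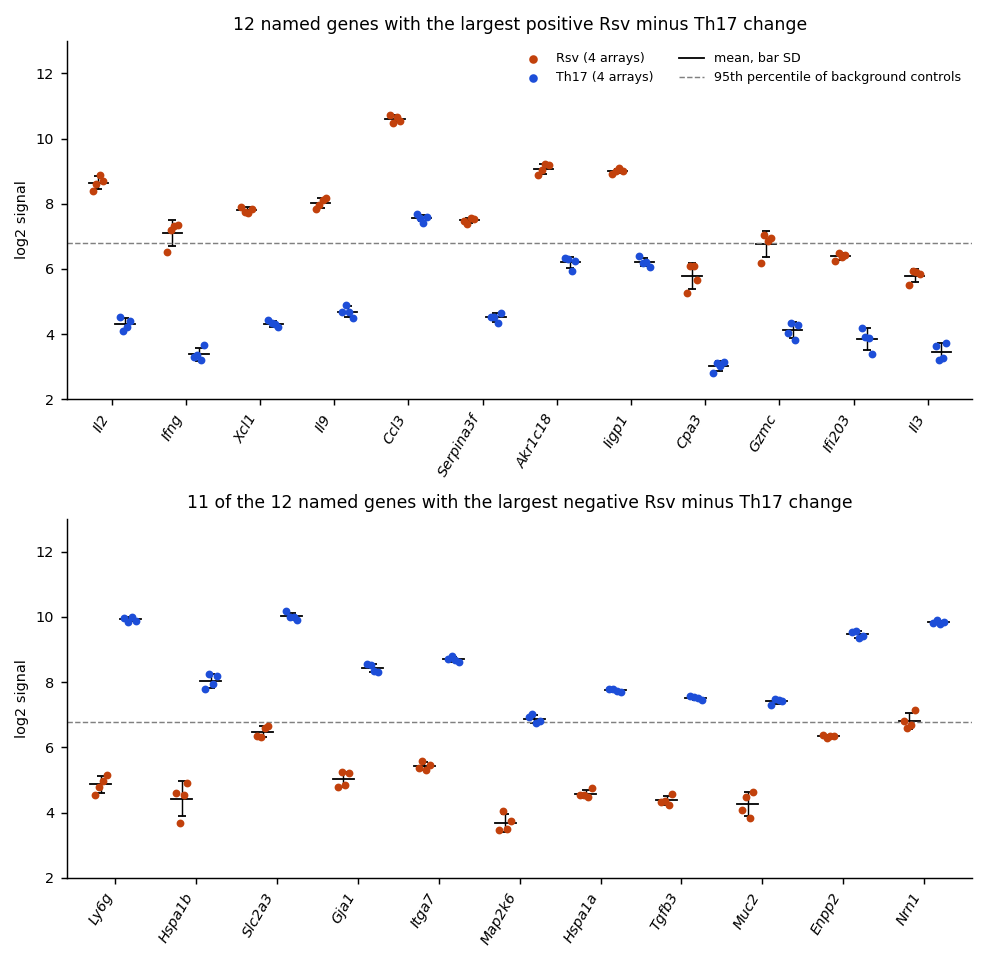
Log2 signal (vertical axis) of the 12 genes that rose most in Rsv (upper panel) and 11 of the 12 that fell most (lower panel), predicted genes, small RNAs and receptor gene segments left aside, each dot 1 array, Rsv left of Th17, with the mean and SD and the background limit of 6.78 as a dashed line. Il2 averages 8.64 in Rsv and 4.31 in Th17, Ly6g averages 4.86 in Rsv and 9.93 in Th17, and for all genes shown but Ccl3 and Nrn1 at least 1 group averages below the limit.

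Enzymes of the sterol pathway, the target of the drug, were mostly higher. Of 21 enzymes from acetyl-CoA to cholesterol, 15 were higher in Rsv (71.4%, against 13.6% of all genes), none was lower, and the median difference was 0.43, against 0.06 over all genes. Among the 19 enzymes above the background limit in either group, 13 were higher, against 1461 of all 5513 such genes. Hmgcs1, a synthase early in the pathway, read 9.61, 9.60, 9.63 and 9.68 in Rsv and 8.95, 8.98, 8.76 and 8.91 in Th17, a difference of 0.73 ± 0.07 (adjusted p = 5.08e-07). Idi1, which isomerises the first isoprenoid unit, rose most, by 1.02 ± 0.08 (adjusted p = 1.89e-08). The demethylase Cyp51 rose by 0.80 ± 0.12. Fdps, Sqle, Dhcr7, Nsdhl and Ebp rose by 0.53 to 0.67, and Msmo1, Sc5d and Lss by 0.22 to 0.38, although Lss lost its call without any of 6 single arrays (adjusted p up to 0.148). Mvk and Tm7sf2 were also called higher, with both groups below the background limit. Pmvk, Mvd, Ggps1, Fdft1, Hsd17b7 and Acat2 did not pass, with differences from -0.24 to 0.22. Without the unnumbered Rsv array 16 of the 21 were higher, and after centring each array 12 were. A rise of this list was not particular to Rsv: in Eze against Th17, 12 of the 21 were higher and 1 lower (median 0.36).

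The promoter of Hmgcs1 is shown because it holds letters of the sterol response element, to which SREBP factors bind. The match is one of letters, and binding was not measured. The letters TCACNCCAC, searched on both strands, were found in 408 of 32851 RefSeq promoter windows (1.24%), each running from 250 bases before to 50 after an annotated start. Of the 21 sterol enzymes, 16 had a window, and among their 19 windows Hmgcs1 alone held these letters. Of the 20 other SREBP-related genes described next, 13 had a window, and none of their 23 windows held the letters. The window is from RefSeq on GRCm38.p6, chr13:119690101-119690400, plus strand, with the match in capitals.
Hmgcs1: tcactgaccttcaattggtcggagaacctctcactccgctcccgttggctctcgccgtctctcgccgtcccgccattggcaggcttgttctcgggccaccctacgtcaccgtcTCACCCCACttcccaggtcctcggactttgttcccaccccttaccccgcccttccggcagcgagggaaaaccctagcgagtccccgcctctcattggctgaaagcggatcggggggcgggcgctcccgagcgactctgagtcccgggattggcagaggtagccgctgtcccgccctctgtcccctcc

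Other SREBP-related genes were divided, with 5 of 20 higher and 5 lower (median -0.03). Each share was 25%, against 13.6% higher and 12.4% lower of all genes. The SREBP escort gene Scap, Tmem97, the retention factor Insig1 and Lrp8 rose by 0.28 to 0.45, Lrp8 with a call that 3 single arrays decided (adjusted p up to 0.0679). Npc2, which hands cholesterol out of the lysosome, fell by 0.59 ± 0.07, its partner Npc1 fell by 0.45 ± 0.09, and Scarb1 fell by 0.32 ± 0.08. Insig2 and Vldlr were called lower with both groups below the limit. The SREBP genes did not pass themselves: Srebf2 differed by 0.02 (95% interval -0.13 to 0.17) and Srebf1 by -0.14 (-0.29 to 0.01).

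Genes of sterol efflux, which the oxysterol receptors LXR control, were divided. Of 17, 5 were called lower and 2 higher, with a median of 0.07. The shares were 29.4% lower and 11.8% higher, against 12.4% and 13.6% of all genes. Of the 17, 13 lay below the limit in both groups. Abcg1, a cholesterol exporter, averaged 6.25 in Rsv and 7.11 in Th17 and fell by 0.86 ± 0.08 (adjusted p = 1.14e-07), or at least 1.26-fold. Nr1h2, which encodes LXRβ, fell by 0.73 ± 0.09, and Soat1, which makes cholesteryl esters, fell by 0.57 ± 0.07. Abca1, another exporter, was called lower at 4.85 in Rsv and 6.24 in Th17, both below the limit. The 2 higher genes were Lpcat3, by 0.25 ± 0.07, and Ch25h, at 3.48 in Rsv and 3.10 in Th17, and after centring neither was called.

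Fatty acid synthesis genes were also mostly higher where they changed, with 11 of 20 genes higher and 3 lower (median 0.30). In Eze against Th17, 11 of the 20 were higher and 2 lower (median 0.40). Fasn, the fatty acid synthase, read 9.32, 9.54, 9.43 and 9.39 in Rsv and 8.22, 8.37, 8.23 and 8.31 in Th17. All Rsv arrays were higher, by 1.14 ± 0.07 (adjusted p = 1.21e-09). The desaturase Fads2 rose by 1.03 ± 0.09, Fads1 by 0.58 ± 0.08, the elongase Elovl1 by 0.56 ± 0.09 and the citrate lyase Acly by 0.41 ± 0.08. Lpin1, which makes diacylglycerol, fell by 0.86 ± 0.08, and Acss2 and Gpam were called lower with both groups below the limit.

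Genes that use isoprenoids moved in both directions, with 5 of 20 higher and 4 lower (median 0.12). The shares were 25% and 20%, against 13.6% and 12.4% of all genes. Of the 5513 genes above the background limit in either group, 1461 were higher and 1912 lower. Centring gave 3 higher and 4 lower, and 11 of the 20 lay below the limit in both groups. The 4 that fell were Cox10, both chains of the enzyme that adds geranylgeranyl groups to Rab proteins, and its escort protein. Chm, the escort, read 8.34, 8.43, 8.43 and 8.55 in Rsv and 9.48, 9.41, 9.23 and 9.32 in Th17. The groups were well apart, and the level fell by 0.92 ± 0.08 (adjusted p = 1.48e-07). The catalytic chains Rabggta and Rabggtb fell by 1.02 ± 0.10 and 0.54 ± 0.12, or at least 1.56-fold and 1.18-fold. Cox10, which builds heme A, fell by 0.67 ± 0.10, or at least 1.21-fold. Zmpste24, a protease that trims prenylated proteins, rose by 0.71 ± 0.09, and Pggt1b, a chain of geranylgeranyl transferase I, by 0.38 ± 0.10, or at least 1.11-fold. Fnta, the chain shared by farnesyltransferase and geranylgeranyl transferase I, differed by -0.07 (95% interval -0.30 to 0.15).

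The GTPases that carry these lipids also split. Of 22 Ras family genes, 6 were higher (27.3%, against 13.6% of all genes) and 5 lower (22.7%, against 12.4%). After centring 1 was called higher. Rhoq read 4.94, 5.38, 5.08 and 5.48 in Rsv and 7.6, 7.88, 7.59 and 7.70 in Th17, so that no Rsv array reached the background limit. It fell by 2.47 ± 0.11 (adjusted p = 2.25e-11), or at least 1.88-fold. Gem, a Ras-like GTPase that is quickly induced in T cells, averaged 6.26 in Rsv and 8.48 in Th17 and fell by 2.22 ± 0.10, or at least 3.25-fold. Rhog fell by 0.99 ± 0.11, Rhoh, which acts in T cell receptor signalling, by 0.68 ± 0.08, and Rras by 0.88 ± 0.19. Rrad fell by 0.53 ± 0.14, or at least 1.02-fold, and Rala and Ralb were called lower below the limit. Cdc42, Rhoa and Rac1 rose by 0.41 ± 0.07, 0.34 ± 0.08 and 0.27 ± 0.07. Rhob, which statins are known to raise in several cell types, read 5.73, 6.01, 6.34 and 6.05 in Rsv and 4.96, 4.97, 4.87 and 4.94 in Th17. It was called higher (adjusted p = 1.19e-06), with all 8 arrays below the limit.

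Actin and SRF target genes gave 11 of 41 higher (26.8%, against 13.6% of all genes) and 3 lower (7.32%, against 12.4%), with a median of 0.12. Centring gave 6 higher and 5 lower, so the balance of the list depended on the scaling. Flna, which cross-links actin, read 8.28, 8.48, 8.33 and 8.38 in Rsv and 7.4, 7.4, 7.22 and 7.34 in Th17. The difference of 1.03 ± 0.07 was far outside the spread of the arrays (adjusted p = 8.33e-09). Ezr, which ties actin to the membrane, rose by 0.74 ± 0.09 and profilin, Pfn1, by 0.56 ± 0.09. Zyx, a focal adhesion gene and SRF target, fell by 1.16 ± 0.07, or at least 1.85-fold, Capg fell by 0.51 ± 0.11 and Srf itself by 0.21 ± 0.08, a call lost without any of 7 single arrays (adjusted p up to 0.126).

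Glycolysis and HIF-1 target genes had the lowest median of the gene lists described here. HIF-1 is the factor that switches on glucose uptake and glycolysis when oxygen is low, and in Th17 cells also under cytokine and mTOR signals. Of 35 such genes, 33 were lower in Rsv (94.3%, against 12.4% of all genes) and none was higher (median -1.08). Among the 28 members above the background limit in either group, 28 were lower, against 1912 of all 5513 such genes. The mean level of all 35 was 7.19 to 7.34 on Rsv arrays and 8.51 to 8.57 on Th17 arrays. In Eze against Th17, 22 of the 35 were also lower and 1 was higher (median -0.34). Slc2a3, a high-affinity glucose transporter, read 6.34, 6.33, 6.6 and 6.66 in Rsv and 10.17, 10.01, 10.01 and 9.92 in Th17. It fell by 3.55 ± 0.09 (adjusted p = 1.14e-14), or at least 9.53-fold against the limit. Slc2a1, the more widely used transporter, read 9.06, 9.14, 9.07 and 9.16 in Rsv and 10.27, 10.24, 10.16 and 10.11 in Th17, and it fell by 1.08 ± 0.07 (adjusted p = 2.57e-09).

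Both enzymes of glycolysis and HIF-1 targets outside it fell. Pgk1 fell by 0.90 ± 0.09, Pkm by 0.50 ± 0.07, Ldha by 0.32 ± 0.07 and Gapdh by 0.27 ± 0.08. Ldha lay below the background limit in Rsv, which bounds its fall at 1.10-fold or more, and the Gapdh feature is marked on the array as cross-hybridising. Aldoc, an aldolase, fell by 1.82 ± 0.08 and Pdk1, which holds pyruvate out of the mitochondria, by 1.62 ± 0.07, or at least 2.79-fold. Ndrg1, a stress-induced HIF-1 target, read 6.81, 6.84, 6.84 and 6.91 in Rsv and 9.62, 9.57, 9.57 and 9.54 in Th17. The arrays of each group lay close together, and the level fell by 2.73 ± 0.07 (adjusted p = 1.14e-14). Vegfa, the angiogenic growth factor, averaged 6.34 in Rsv and 8.55 in Th17, at least 3.42-fold lower. Bnip3, a mitophagy receptor, averaged 5.79 in Rsv and 8.00 in Th17, at least 2.33-fold lower. Ero1l, which oxidises new proteins, fell by 1.90 ± 0.07, and Egln3, an oxygen sensor, by 1.73 ± 0.07. Hif1a, which encodes the regulated subunit of HIF-1, fell by 0.37 ± 0.08. Pgam1 and Car9 were the 2 that did not pass, both below the limit, at 5.52 and 3.71 in Rsv and 5.93 and 4.00 in Th17.

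The promoters of Bnip3 and Aldoc hold the core hypoxia response letters ACGTG. They were picked from the largest falls among such list genes above the background limit in either group. Other list genes with the letters fell less, such as Ldha and Gapdh. On either strand, these letters occurred in 6447 of the 32851 promoter windows (19.6%) and in 26 of the 46 windows of the HIF-1 list (56.5%), where 31 of the 35 genes had a window. The match is a description of the letters and was not tested as a binding site. Both windows are from RefSeq on GRCm38.p6, at chr7:138909457-138909756 on the minus strand for Bnip3 and chr11:78322823-78323122 on the plus strand for Aldoc, with the match on either strand in capitals. In Bnip3 the matches on the 2 strands overlap.
Bnip3: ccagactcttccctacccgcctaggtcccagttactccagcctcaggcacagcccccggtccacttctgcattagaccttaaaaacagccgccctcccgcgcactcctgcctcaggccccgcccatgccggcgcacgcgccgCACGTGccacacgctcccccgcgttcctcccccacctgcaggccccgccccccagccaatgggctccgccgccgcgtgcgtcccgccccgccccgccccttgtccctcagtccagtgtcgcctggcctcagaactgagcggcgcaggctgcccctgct
Aldoc: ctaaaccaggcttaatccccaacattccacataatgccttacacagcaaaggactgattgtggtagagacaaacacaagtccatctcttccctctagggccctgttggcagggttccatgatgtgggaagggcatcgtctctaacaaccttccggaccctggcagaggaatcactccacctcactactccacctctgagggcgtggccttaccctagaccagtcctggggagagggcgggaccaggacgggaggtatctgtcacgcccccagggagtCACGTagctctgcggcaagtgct

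**Figure D2:**
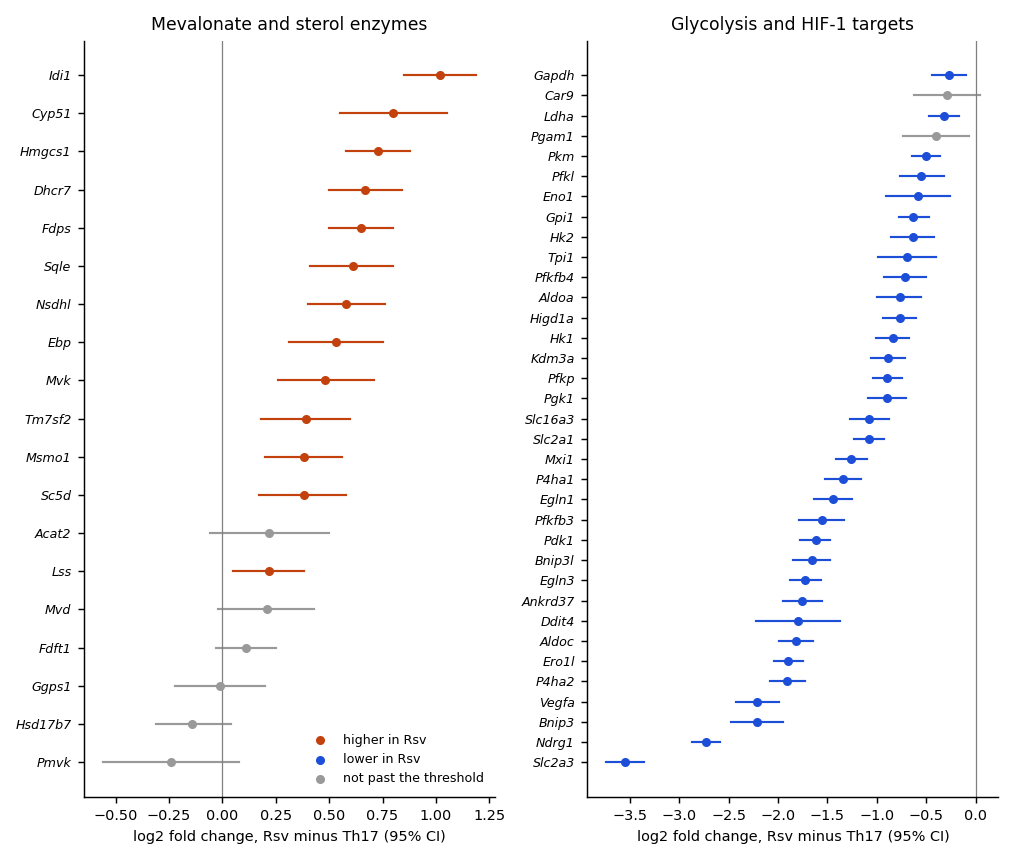
Log2 fold change of Rsv minus Th17 (horizontal axis, points with 95% intervals) for 19 of the 21 sterol synthesis enzymes and for the glycolysis and HIF-1 target genes, coloured by direction where the adjusted p was under 0.05. The sterol enzymes reach 1.02 at Idi1 and none is called lower, whereas 33 of 35 genes on the HIF-1 side are called lower, down to -3.55 at Slc2a3.

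Oxidative phosphorylation genes stood near the median of all genes. Of 45 nuclear subunit genes, 9 were higher and 5 lower (median 0.06), the same as over all genes. Ndufa6, a complex I subunit, fell by 1.09 ± 0.10 and Atp5d by 0.43 ± 0.08, and after centring 6 were higher and 8 lower. Of 13 transcripts of mitochondrial DNA, 7 were higher and none lower (median 0.23), but centring left 1 called. ND3 averaged 11.65 in Rsv and 11.15 in Th17.

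Cytokine genes of other helper lineages were higher in Rsv. Ifng, the Th1 cytokine, read 6.52, 7.20, 7.33 and 7.35 in Rsv and 3.30, 3.36, 3.20 and 3.67 in Th17. No array of the groups overlapped, but 1 Rsv array lay below the background limit. The difference was 3.72 ± 0.16 (adjusted p = 1.05e-11), or at least 1.25-fold. Il9, the cytokine of Th9 cells and mast cells, read 7.85, 7.97, 8.12 and 8.17 in Rsv and 4.69, 4.90, 4.68 and 4.49 in Th17. It rose by 3.34 ± 0.12 (adjusted p = 1.22e-12), or at least 2.38-fold. Il13, a Th2 cytokine, averaged 7.51 in Rsv and 5.24 in Th17, at least 1.67-fold higher (adjusted p = 4.58e-11). Il4 and Il5 were called higher with both groups below the limit, at 5.63 and 4.36 in Rsv and 4.46 and 3.83 in Th17, and Il3 likewise at 5.79 in Rsv and 3.46 in Th17. Tnf rose by 0.96 ± 0.09, Lta by 0.79 ± 0.09 and Osm by 0.90 ± 0.09. Csf2 did not pass, at 5.08 in Rsv and 4.97 in Th17.

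Th1 genes as a group gave 10 of 17 higher and 4 lower (median 0.42). Of the 17, 8 lay below the background limit in both groups, and a fit without such genes gave 5 of 9 higher and 3 lower. Il18r1, the IL-18 receptor, averaged 8.61 in Rsv and 6.67 in Th17, at least 3.56-fold higher (adjusted p = 3.53e-11). The 4 lower genes were Il12rb2, by 0.54 ± 0.07, Runx3, by 0.55 ± 0.09, Stat4, by 0.20 ± 0.07, and Hlx, which lay below the limit in both groups. The call of Stat4 was lost without any of 7 single arrays (adjusted p up to 0.117). Tbx21, the Th1 master regulator, read 6.09, 6.31, 6.43 and 6.47 in Rsv and 5.73, 5.77, 6.29 and 5.8 in Th17. The groups overlapped at 1 Th17 array and lay below the limit, although the fit called the gene higher (adjusted p = 0.034), and leaving out any of 6 single arrays ended the call (adjusted p up to 0.1). Of 12 Th2 genes, 5 were higher and 2 lower. Here 8 lay below the limit in both groups, and the fit without such genes gave 2 of 4 higher and 2 lower. Gata3, the Th2 master regulator, did not pass and averaged 5.69 in Rsv and 5.49 in Th17. Nfil3, a repressor induced by cytokines, fell by 1.68 ± 0.09, or at least 2.44-fold, and Il4ra by 0.27 ± 0.07.

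Chemokine genes were nearly all higher, with 14 of 16 higher and none lower (median 0.68). Of the 16, 13 lay below the background limit in both groups, and centring left 11 called. Xcl1, lymphotactin, read 7.91, 7.76, 7.71 and 7.83 in Rsv and 4.43, 4.33, 4.31 and 4.21 in Th17. It rose by 3.48 ± 0.12 (adjusted p = 3.42e-13), or at least 2.04-fold. Ccl3, a chemokine that draws in inflammatory cells, read 10.71, 10.49, 10.67 and 10.54 in Rsv and 7.67, 7.56, 7.42 and 7.58 in Th17. Both groups were above the limit, and the difference was 3.04 ± 0.10, an 8.24-fold rise (adjusted p = 2.91e-13). Among receptors, Cxcr4, that of a homing chemokine, fell by 1.68 ± 0.09 (adjusted p = 7.53e-11) and Ccr7, which guides cells into lymph nodes, by 0.47 ± 0.08.

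Interferon-γ inducible GTPases, which attack the vacuoles of intracellular pathogens, were mostly higher, as Ifng was. Of 21 such genes and factors, 17 were higher and 1 lower (median 0.82), and 15 were higher after centring. Iigp1 read 8.92, 9.0, 9.10 and 8.99 in Rsv and 6.39, 6.17, 6.21 and 6.07 in Th17. The Th17 arrays were all below the limit, and the rise of 2.79 ± 0.09 (adjusted p = 2.91e-13) was at least 4.69-fold. Gbp7 averaged 8.03 in Rsv and 6.26 in Th17, at least 2.39-fold higher, and Gbp4 averaged 8.01 in Rsv and 6.28 in Th17, at least 2.35-fold higher. Igtp rose by 0.90 ± 0.08 and the factor Irf1 by 0.70 ± 0.08. Irf8, a factor of myeloid and B cells that T cells can also make, was the exception and fell by 0.45 ± 0.09. Gvin1 rose by 1.18 ± 0.10, although its feature is marked as cross-hybridising.

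Genes of the broader interferon response gave 26 of 52 higher and 2 lower (median 0.31), and 33 of the 52 lay below the limit in both groups. Phf11b rose by 1.29 ± 0.09, the nucleic acid sensor Zbp1 by 0.94 ± 0.07, Parp14 by 0.87 ± 0.08 and Ifi35 by 0.79 ± 0.08. Wars, the tryptophanyl-tRNA synthetase that interferon-γ induces, rose by 1.40 ± 0.11. The 2 that were lower, Dhx58 and Oas3, were below the limit in both groups.

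The promoters of Gbp7 and Igtp hold the letters of both elements through which interferon acts, the gamma-activated sequence TTCNNNGAA and the interferon-stimulated response element GAAANNGAA. They were picked for the largest rises among such list genes above the background limit in either group. The other list genes with both were Tgtp2, Irgm2, Gbp5 and Tgtp1, with differences of 0.82, 0.54, 0.05 and -0.34, so the letters did not go with a rise in each. On either strand, both sets of letters occurred together in 351 of the 32851 windows (1.07%) and in 6 of the 15 windows of the interferon-γ list, where 12 of the 21 genes had a window. The first alone was in 8.3% of all windows and 53.3% of those of the list, and the second in 8.56% and 66.7%. The windows are from RefSeq on GRCm38.p6, at chr3:142530086-142530385 for Gbp7 and chr11:58199306-58199605 for Igtp, both on the plus strand, with matches to either element on either strand in capitals. These are matches of letters, and binding was not measured.
Gbp7: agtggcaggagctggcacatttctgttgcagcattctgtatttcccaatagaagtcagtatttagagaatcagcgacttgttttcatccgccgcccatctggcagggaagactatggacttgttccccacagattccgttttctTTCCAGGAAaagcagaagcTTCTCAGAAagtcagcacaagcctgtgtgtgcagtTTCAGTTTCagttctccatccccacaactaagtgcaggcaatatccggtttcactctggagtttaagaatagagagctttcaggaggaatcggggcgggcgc
Igtp: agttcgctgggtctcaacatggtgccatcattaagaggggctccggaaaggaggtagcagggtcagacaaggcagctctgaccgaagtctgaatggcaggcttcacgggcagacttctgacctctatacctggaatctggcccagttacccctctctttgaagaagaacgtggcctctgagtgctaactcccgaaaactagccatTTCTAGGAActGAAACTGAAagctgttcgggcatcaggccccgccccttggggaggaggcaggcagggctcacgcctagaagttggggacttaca

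Markers of cytotoxic and natural killer cells rose in the same arrays. Of 20, 13 were higher and 1 lower (median 0.40), and the mean level of the list was 5.84 to 6.06 on Rsv arrays and 5.31 to 5.37 on Th17 arrays. Centring gave 8 higher and 2 lower. Of the 20, 11 lay below the background limit in both groups. The 1 lower gene, Gzmk, was below the limit. Gzmb, a granzyme that activated CD4 T cells can also make, read 10.30, 10.52, 10.70 and 10.61 in Rsv and 8.76, 8.89, 8.96 and 8.96 in Th17. The groups were apart by 1.64 ± 0.09 (adjusted p = 3.7e-10). Cd8a, a coreceptor of CD8 T cells, read 7.07, 7.27, 7.49 and 7.51 in Rsv and 6.01, 6.21, 6.06 and 6.04 in Th17, at least 1.47-fold higher (adjusted p = 2.19e-07), and Cd8b1 rose by 0.71 ± 0.09. Nkg7 rose by 0.99 ± 0.09 and the perforin gene Prf1 by 0.53 ± 0.11, or at least 1.27-fold. Ncr1, which defines natural killer cells, stayed far below the limit, at 3.77 in Rsv and 3.34 in Th17 (adjusted p = 0.0289). Gzma did not pass, with a difference of -0.22 (95% interval -0.45 to 0.02), nor did Klrd1, with a difference of -0.39 (-0.71 to -0.08, adjusted p = 0.0639).

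The genes of the T cell receptor γ chain, a chain of γδ T cells, were chosen after their values were seen. Tcrg-C1 read 7.99, 8.61, 8.86 and 9.01 in Rsv and 5.57, 5.55, 5.64 and 5.73 in Th17. Tcrg-C2 read 9.44, 9.79, 9.72 and 9.70 in Rsv and 6.12, 6.49, 6.55 and 6.67 in Th17. The Th17 arrays were all below the limit, so the rises of 3.00 ± 0.16 and 3.20 ± 0.12 were at least 3.58-fold and at least 7.39-fold. Tcrg-C3 was called higher below the limit. These constant genes are similar in sequence, their features and those of Tcrg-V1 and Tcrg-V3 are marked as cross-hybridising, and αβ T cells can also transcribe them. Among variable genes, Tcrg-V1 rose by 0.91 ± 0.09 and Tcrg-V3 and Tcrg-V4 were called higher below the limit, while Tcrg-V5, Tcrg-V6 and Tcrg-V7 did not pass.

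Markers of other cell types were mostly below the limit. Of 16 B cell markers, 6 were higher and 1 lower, with a mean level of 4.99 to 5.19 on Rsv arrays and 4.77 to 4.91 on Th17 arrays, and 15 lay below the limit in both groups. Ebf1 was the 1 lower marker. The marker above the limit was Ighm, at 10.49 in Rsv and 9.70 in Th17, which did not pass when its features were averaged (difference 0.10, adjusted p = 0.488). Of 24 myeloid markers, 11 were higher and 2 lower, with a mean level of 4.89 to 5.0 on Rsv arrays and 4.52 to 4.67 on Th17 arrays, and 20 lay below the limit in both. Centring left 7 higher. Lyz2, which defines macrophages and granulocytes, averaged 6.47 in Rsv and 5.11 in Th17, below the limit in both. Cybb, an oxidase subunit of phagocytes, averaged 7.22 in Rsv and 5.09 in Th17, at least 1.36-fold higher, while Cd68 averaged 6.54 in Rsv and 8.05 in Th17, at least 2.42-fold lower, and Cst3 fell by 0.38 ± 0.08. Of 12 T cell identity genes, 1, Thy1, was higher and 5 were lower, including Cd4 by 0.45 ± 0.10, Cd3d by 0.47 ± 0.11 and Cd3g by 0.39 ± 0.08. The mean of that list was 9.09 to 9.23 on Rsv arrays and 9.27 to 9.33 on Th17 arrays. The part of these cell types in the differences above was not tested.

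Th17 differentiation genes were mostly lower, with the effector cytokines divided. In the panel of 15 differentiation genes that the study chose on these samples, 10 were lower and 2 higher (median -0.46), and so the panel's direction is no independent evidence. Il17a read 6.85, 6.91, 7.09 and 7.29 in Rsv and 6.94, 7.0, 6.74 and 6.87 in Th17. These arrays overlapped, and the difference was 0.15 ± 0.15 (95% interval -0.17 to 0.46, adjusted p = 0.528). Il17f read 9.62, 9.62, 9.67 and 9.78 in Rsv and 10.37, 10.38, 10.30 and 10.31 in Th17, and it fell by 0.67 ± 0.14 (adjusted p = 0.00187).

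The rest of the panel held receptors and signal carriers. Il23r, the receptor that sustains Th17 cells, averaged 5.79 in Rsv and 7.76 in Th17, at least 1.98-fold lower (adjusted p = 3.48e-10). Jak3 fell by 0.98 ± 0.08, Stat3 by 0.78 ± 0.07, the ligand-sensing factor Ahr by 0.61 ± 0.08, Ifngr1 by 0.46 ± 0.10, and Hif1a, Cd3d and Cd3g by the values above. The panel's 2 rises were Foxp3 and Jun. Foxp3, the regulator of Treg cells, read 8.29, 8.12, 7.98 and 8.29 in Rsv and 6.36, 6.35, 6.36 and 6.87 in Th17, a rise of 1.69 ± 0.11 (adjusted p = 2.18e-09). Of the Th17 arrays, 1 was above the limit. Jun rose by 0.49 ± 0.09. Il1r1, Il6ra and Il6st did not pass, with differences of 0.32, 0.07 and -0.12.

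**Figure D3:**
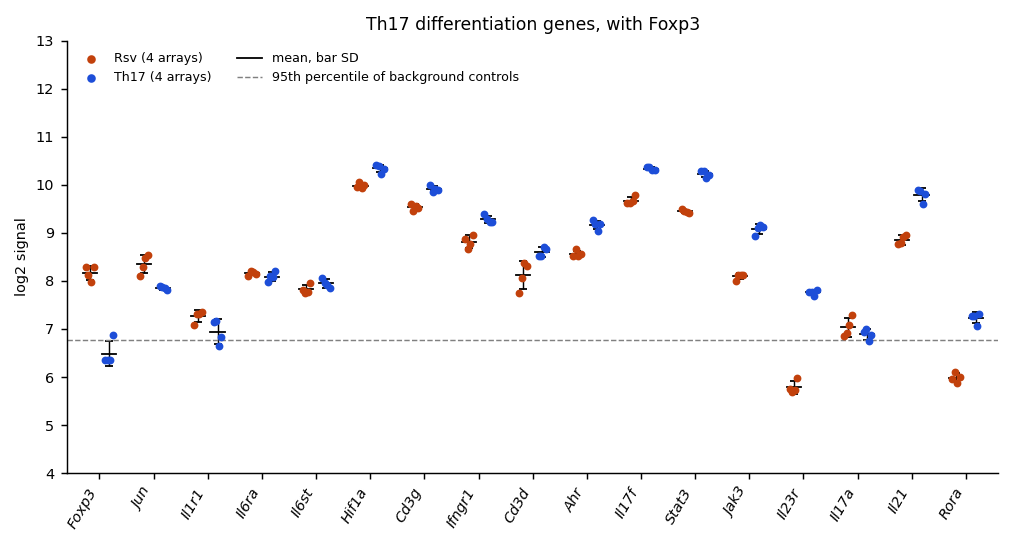
Log2 signal (vertical axis) of 14 of the 15 panel genes, Foxp3 among them, and of Il17a, Il21 and Rora on each array (dots), Rsv left of Th17, with the mean and SD and the background limit dashed. The Il17a arrays overlap at means of 7.03 in Rsv and 6.89 in Th17, and Foxp3 averages 8.17 in Rsv and 6.48 in Th17.

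Over a wider list of 37 Th17 lineage genes, 20 were lower and 6 higher (median -0.35, and -0.22 without the unnumbered Rsv array). Tgfb3, a TGF-β made by pathogenic Th17 cells, read 4.33, 4.35, 4.24 and 4.57 in Rsv and 7.58, 7.56, 7.51 and 7.44 in Th17. It fell by 3.15 ± 0.08 (adjusted p = 1.14e-14), or at least 1.68-fold. Fosl2, an AP-1 factor, fell by 2.29 ± 0.08 (adjusted p = 4.82e-13) with both groups above the limit, at 7.03 in Rsv and 9.32 in Th17. Serpinb1a, a protease inhibitor marking IL-17 producers, was at least 1.91-fold lower and the nuclear receptor Rora at least 1.38-fold lower. Il21 fell by 0.93 ± 0.09, Il24 by 1.10 ± 0.08, Maf by 0.51 ± 0.08 and Irf4 by 0.36 ± 0.08. Batf did not pass, with a difference of -0.15 (95% interval -0.31 to 0.01), and Il22 read 1.26 in Rsv and 1.39 in Th17, below the limit. The 6 higher members were Il9, Ccr6, Tgfb1, Lta, Tmem176a and Tmem176b. Of 20 genes of TGF-β signalling, 6 were lower (30%, against 12.4% of all genes) and 2 higher (10%, against 13.6%), with a median of -0.05. Of the 5513 genes above the background limit in either group, 1912 were lower. Smad3 was lower by 0.94 ± 0.11, or at least 1.6-fold, and Tgfb1 was higher by 0.28 ± 0.07. The other higher gene, Tgfbr1, was below the limit, and centring left neither called.

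Most other genes of regulatory T cells that changed were lower. Of 19, 4 were higher and 10 lower (median -0.30), and besides Foxp3 the higher ones, Nrp1, Socs2 and Itgae, were below the limit. The folate receptor Izumo1r was at least 2.25-fold lower, the inhibitory receptors Tigit and Lag3 at least 1.51-fold and 1.96-fold lower. Ctla4, an inhibitory receptor of Treg cells, read 8.55, 8.55, 8.75 and 8.69 in Rsv and 9.62, 9.59, 9.43 and 9.50 in Th17, and it fell by 0.90 ± 0.07 (adjusted p = 4.21e-08). Tnfrsf18 fell by 1.09 ± 0.09, Tnfrsf4 by 0.81 ± 0.08 and Lrrc32, which displays latent TGF-β, by 0.68 ± 0.08. Il2ra differed by 0.18 (95% interval 0.03 to 0.32, adjusted p = 0.0671), and Ikzf2 lay below the limit. Il10 fell by 0.45 ± 0.09, or at least 1.13-fold. In follicular helper genes, Bcl6, the lineage factor, averaged 5.79 in Rsv and 7.15 in Th17, at least 1.29-fold lower, and Cxcr5 was at least 1.19-fold lower, in a list of 12 with 4 lower and 2 higher. The higher ones were Btla, by 0.41 ± 0.08, and Pou2af1, by 0.47 ± 0.10 or at least 1.23-fold.

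Beside Il2, the genes of its receptor and signal carriers were divided. Of 15 genes of the IL-2 axis, 6 were higher and 4 lower (median 0.18). Stat5b, which carries the IL-2 signal, read 7.99, 7.99, 7.96 and 8.11 in Rsv and 9.10, 9.22, 9.07 and 9.16 in Th17. It fell by 1.13 ± 0.07 (adjusted p = 2.04e-09), and Stat5a fell by 0.90 ± 0.07. Il2rb fell by 0.30 ± 0.08 and Il2rg rose by 0.22 ± 0.07, a call lost without 1 Rsv array (adjusted p = 0.0529). Socs3, a brake on STAT3, fell by 0.78 ± 0.10, while Cish, a STAT5 target, differed by -0.11 (95% interval -0.27 to 0.05).

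Genes of T cell receptor signalling were more often lower than higher, with 14 of 32 lower and 3 higher (median -0.16). The lower share was 43.8%, against 12.4% of all genes. Only 2 of the 32 lay below the background limit in both groups, and of all genes above it in either group 1912 of 5513 were lower. The kinase Zap70 read 8.08, 7.94, 8.15 and 8.23 in Rsv and 8.89, 8.94, 8.95 and 9.11 in Th17. The groups did not overlap, and the level fell by 0.87 ± 0.08 (adjusted p = 1.3e-07). Plcg1 fell by 0.82 ± 0.08 and the phosphatase Ptpn22 by 0.62 ± 0.08. The 3 rises were Trat1, Rasgrp1, which activates Ras, by 0.56 ± 0.08, and Lcp2, by 0.28 ± 0.07. Trat1 lay below the limit in both groups.

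Early response genes, which follow receptor signals within hours, gave 10 of 30 lower and 5 higher (median -0.16, and -0.09 without the unnumbered Rsv array). These were 33.3% lower and 16.7% higher, against 12.4% and 13.6% of all genes. Of the 5513 genes above the background limit in either group, 1912 were lower, and 12 of the 30 lay below it in both. Ier3 read 6.65, 7.32, 7.61 and 7.39 in Rsv and 9.01, 9.46, 9.48 and 9.63 in Th17. The unnumbered array was lowest in each group, and the level fell by 2.15 ± 0.19 (adjusted p = 8.77e-08). Dusp6, a phosphatase that limits ERK, was at least 2.68-fold lower and Tnfrsf9, a costimulatory receptor, fell by 1.58 ± 0.10. Nr4a1, which tracks receptor signal strength, fell by 0.62 ± 0.07, Nr4a2 by 1.0 ± 0.08, or at least 1.24-fold, and Junb by 0.54 ± 0.08. Cd69, an activation marker, rose by 0.61 ± 0.09 and the NF-κB inhibitor genes Nfkbia and Nfkbid by 0.37 ± 0.07 and 0.41 ± 0.10, as did Jun, while Dusp5 was called higher below the limit. Costimulatory and checkpoint genes had 7 of 24 higher (29.2%, against 13.6% of all genes) and 9 lower (37.5%, against 12.4%), with a median of -0.07. Of the 5513 genes above the limit in either group, 1461 were higher and 1912 lower.

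Among genes of quiescent and naive T cells, 8 of 26 were higher and 12 lower (median -0.11). The shares were 30.8% and 46.2%, against 13.6% and 12.4% of all genes. Of the 5513 genes above the background limit in either group, 1461 were higher and 1912 lower. Klf2, a quiescence factor that statins are known to raise in endothelium, read 7.34, 6.97, 7.11 and 7.39 in Rsv and 5.98, 6.21, 6.24 and 6.18 in Th17. It rose by 1.05 ± 0.14 (adjusted p = 1.82e-05), or at least 1.34-fold. Slfn1 rose by 1.12 ± 0.11, Slfn2 by 0.83 ± 0.07 and the factor Tcf7 by 0.54 ± 0.08. Btg1 fell by 0.57 ± 0.07, Cd27 fell by 0.74 ± 0.08 and Ccr7 fell by 0.47 ± 0.08. Il7r differed by -0.21 ± 0.10 and did not pass (adjusted p = 0.131). Of 25 adhesion genes, 10 were higher (40%, against 13.6% of all genes) and 9 lower (36%, against 12.4%). After centring 8 were higher and 11 lower. Itga4, the α4 integrin, read 8.67, 8.76, 8.58 and 8.72 in Rsv and 7.42, 7.16, 7.13 and 7.18 in Th17, a rise of 1.46 ± 0.09 (adjusted p = 6.56e-10). Selp, P-selectin, fell by 1.34 ± 0.13 and Itga3 was at least 1.98-fold lower.

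Proliferation genes were mostly higher in Rsv. Of 46 genes of DNA replication and nucleotide supply, 42 were higher (91.3%, against 13.6% of all genes) and none lower (median 0.65). Of 66 mitotic genes, those of kinetochore and spindle included, 56 were higher (84.8%) and none lower (median 0.48). Of 65 replication-dependent histone genes, 24 were higher (36.9%) and 1, Hist1h2bc, lower. Of the histone genes, 46 lay below the limit in both groups. Centring left 38, 44 and 21 higher. These rises were not particular to Rsv. In Eze against Th17, 44 of the 46 replication genes were higher and none lower (median 0.78). Of the 66 mitotic genes, 41 were higher and 2 lower in Eze (median 0.34). Rrm2, the regulated subunit of ribonucleotide reductase, read 8.38, 8.29, 8.49 and 8.54 in Rsv and 7.04, 6.84, 6.83 and 6.89 in Th17. All Rsv arrays were higher, by 1.52 ± 0.08 (adjusted p = 1.26e-10). Cdc6, which licenses origins, was at least 2.12-fold higher, the helicase subunits Mcm2 and Mcm5 rose by 1.04 ± 0.08 and 0.92 ± 0.07, and Tyms rose by 1.16 ± 0.12, or at least 1.48-fold. Mki67, the usual proliferation marker, read 10.57, 10.73, 10.52 and 10.62 in Rsv and 10.07, 10.00, 9.84 and 9.85 in Th17, a rise of 0.67 ± 0.08 (adjusted p = 3.28e-06). Top2a rose by 0.78 ± 0.08, the mitotic kinase Plk1 by 0.72 ± 0.08 and the condensin subunit Ncapg2 by 1.03 ± 0.09.

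Of 25 cyclins, cyclin-dependent kinases and their inhibitors, 13 were higher and 7 lower. The S phase cyclins Ccne1 and Ccne2 rose by 1.05 ± 0.09 and 1.15 ± 0.11, or at least 1.21-fold and 1.22-fold, and E2f8, a factor of late S phase, by 1.14 ± 0.10, or at least 1.89-fold. Cdkn1b, the inhibitor p27, read 7.29, 7.4, 7.45 and 7.62 in Rsv and 8.50, 8.41, 8.35 and 8.49 in Th17, and it fell by 0.99 ± 0.09 (adjusted p = 1.09e-07). Cdkn1a, the inhibitor p21, fell by 1.08 ± 0.10 and Ccng2, a cyclin of arrested cells, by 0.99 ± 0.08. Myc differed by -0.02 ± 0.07 and overlapped.

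Genes that build ribosomes were mostly higher, while those for ribosomal proteins were more often lower. Of 70 genes that process rRNA and assemble ribosomes, 56 were higher (80%, against 13.6% of all genes) and 1 lower (median 0.56). In Eze against Th17, 69 of the 70 were higher and none lower (median 0.96). Nolc1, a nucleolar phosphoprotein, read 7.99, 8.01, 8.09 and 8.14 in Rsv and 7.02, 6.98, 6.88 and 6.84 in Th17, a rise of 1.13 ± 0.07 (adjusted p = 1.36e-09). Ftsj3 rose by 1.14 ± 0.10, the pseudouridine synthase Dkc1 by 1.08 ± 0.10, and the box C/D proteins Nop58 and Nop56 by 0.96 ± 0.09 and 0.89 ± 0.07. Averaged over all their features, Nop58 and Nop56 differed by 0.23 and 0.22 and did not pass (adjusted p = 0.112 and 0.149). Polr1c, a subunit shared by RNA polymerases I and III, was the 1 exception, lower by 0.32 ± 0.08. Of 84 ribosomal protein genes, 35 were lower and 3 higher (median -0.20), but 46 lay below the limit in both groups and this family has many near-copies in the genome. Rpl36 fell by 0.84 ± 0.09 and Rps13 by 0.76 ± 0.16, while Rpl6 was higher by 0.34 ± 0.10, and Rpl7l1 and Rpl39l were called higher below the limit. The features of Rpl36, Rps13 and Rpl6 are marked as cross-hybridising, and with features averaged Rps13 and Rpl6 did not pass (differences -0.11 and 0.15).

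Stress programs differed from each other. Unfolded protein response genes, chaperones of the endoplasmic reticulum for the most part, gave 12 of 22 higher and 2 lower (median 0.50). In Eze against Th17, 14 of the 22 were higher and 1 lower (median 0.56). Hspa5, the chaperone BiP, read 7.97, 8.21, 8.21 and 8.22 in Rsv and 7.49, 7.54, 7.43 and 7.53 in Th17, a rise of 0.66 ± 0.08 (adjusted p = 3.51e-06). Hyou1 rose by 0.79 ± 0.08, and Sdf2l1, Dnajb11 and Creld2 averaged 7.46, 7.31 and 7.48 in Rsv and 6.53, 6.38 and 6.61 in Th17, at least 1.61-fold, 1.45-fold and 1.63-fold higher. The 2 that fell were upstream in the response, Xbp1 by 0.21 ± 0.08, a call lost without any of 7 single arrays (adjusted p up to 0.121), and the sensor kinase Eif2ak3, which lay below the limit in both groups. ATF4 targets, which supply amino acids, gave 12 of 32 higher and 6 lower, with 6 higher after centring. The transporters Slc7a5 and Slc7a1 rose by 0.76 ± 0.08 and 0.59 ± 0.07 and Shmt2, of one-carbon metabolism, by 0.68 ± 0.09. Eif4ebp1, a brake on translation, fell by 1.15 ± 0.10 and Ddit4, a brake on mTOR, fell by 1.80 ± 0.20. Atf4 and the asparagine synthetase Asns did not pass, with differences of 0.07 and 0.17. Of 19 cytosolic tRNA synthetases, 13 were higher and 3 lower (median 0.33). Dars, Qars and Sars fell by 0.63 ± 0.07, 0.61 ± 0.08 and 0.48 ± 0.08.

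Heat shock chaperones were split, with 7 of 20 higher and 6 lower. Hspa1a read 4.53, 4.53, 4.49 and 4.75 in Rsv and 7.78, 7.8, 7.72 and 7.70 in Th17, at least 1.96-fold lower. Hspa4l fell by 1.54 ± 0.08 (adjusted p = 1.57e-10), whereas the mitochondrial chaperonin Hspd1 rose by 0.93 ± 0.09. NRF2 targets and glutathione genes gave 11 of 25 higher and 5 lower. The thioredoxin Txn1 rose by 0.61 ± 0.09 and Gclm, which limits glutathione synthesis, averaged 6.97 in Rsv and 6.08 in Th17, at least 1.15-fold higher. Nfe2l2, the gene of NRF2, fell by 0.35 ± 0.10, a call that either unnumbered array decided (adjusted p up to 0.0603), Gpx4 by 0.31 ± 0.08 and Sqstm1 by 0.27 ± 0.07, and Gss and Prdx6 were called lower below the limit. Hmox1, a classic NRF2 target, did not pass, at 6.16 in Rsv and 5.94 in Th17.

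Lysosome and autophagy genes were more often lower, with 18 of 36 lower and 4 higher (median -0.23). That was 50% lower, against 12.4% of all genes and 1912 of the 5513 genes above the background limit in either group. Of the 36, 12 lay below it in both. Ulk1, which starts autophagy, fell by 0.68 ± 0.07, while the cathepsin genes Ctsc and Ctss rose by 0.66 ± 0.07 and 0.59 ± 0.09. Tfe3, a lysosomal gene regulator, rose by 0.22 ± 0.08, a call lost without any of 6 single arrays (adjusted p up to 0.106), and Gusb averaged 6.79 in Rsv and 5.93 in Th17. Of 11 MHC class II genes, 9 of them below the limit in both groups, 4 were higher and 3 lower. H2-Ab1 read 7.56, 7.49, 7.76 and 7.67 in Rsv and 9.26, 9.29, 9.35 and 9.37 in Th17, and it fell by 1.69 ± 0.08 (adjusted p = 1.75e-11), while H2-Oa and H2-Ob were called lower below the limit. Cd74, the invariant chain, rose by 0.56 ± 0.08. Among 8 AHR target genes, Tiparp averaged 6.24 in Rsv and 7.75 in Th17 and was at least 1.97-fold lower. Cyp1a1, the standard target, and Nqo1 were called higher below the limit, Cyp1a1 at 4.91 in Rsv and 4.47 in Th17. The p53 targets had 4 of 24 higher and 5 lower and the Bcl2 family 4 of 20 each way, or 1 higher and 4 lower after centring, both with medians near that of all genes at 0.01 and 0.12. Erythroid and platelet markers were below the limit in both groups for all 10 genes.

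**Figure D4:**
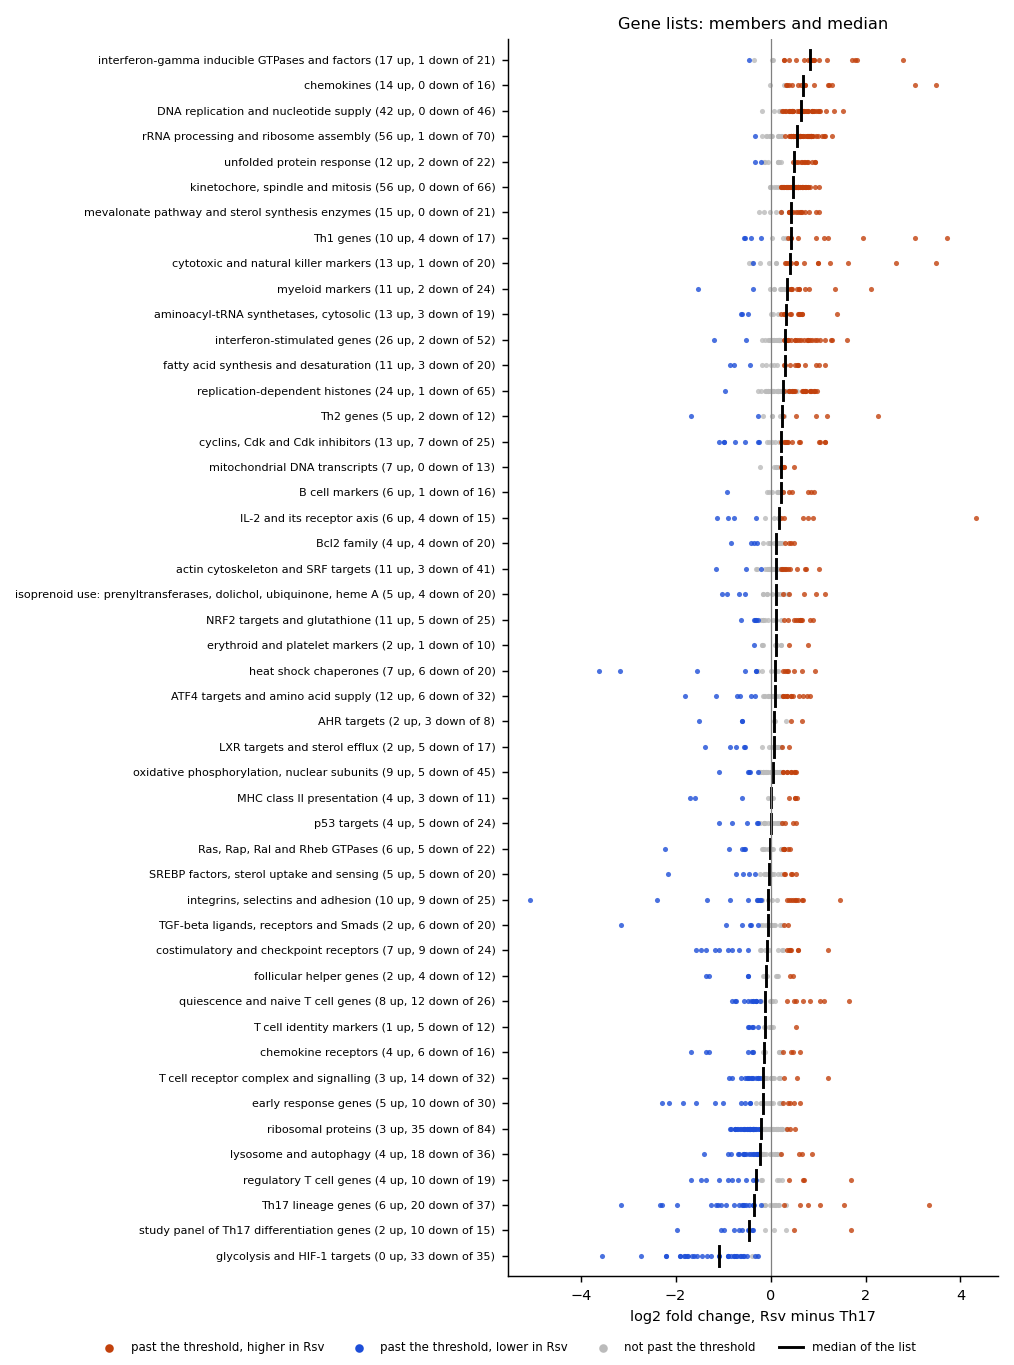
Log2 fold change of Rsv minus Th17 (horizontal axis) for the members of gene lists (dots, coloured by direction where called) with the median of the list as a black bar and the counts beside its name. The HIF-1 list has the lowest median, -1.08, and the interferon-γ list, the chemokines and DNA replication have the highest, at 0.82, 0.68 and 0.65.

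The Rsv arrays were also compared with arrays of the other cholesterol drug, ezetimibe, which blocks the sterol transporter Npc1l1 and was labelled with the same dose. Of 30920 genes, 4685 were higher in Rsv than in Eze (15.2%) and 4117 lower (13.3%), and after centring each array 2010 were higher and 6796 lower. Centring moved the median of all genes in this comparison to -0.08, against 0.08 as deposited. The 2 comparisons share the Rsv arrays, so their values are given side by side only. Sterol enzymes had 4 of 21 higher and 1 lower in Rsv than in Eze (median 0.06), a balance that centring turned, with 3 higher and 5 lower (median -0.09). Of these, Hmgcs1 was higher in Rsv than in Eze by 0.51 (adjusted p = 4.06e-05).

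The drugs differed in genes of amino acid supply. Of 32 ATF4 targets, 29 were lower in Rsv than in Eze and none higher (median -1.20), against 0.09 between Rsv and Th17. Asns was lower in Rsv than in Eze by 1.73 on the log2 scale (adjusted p = 1.53e-11), and Slc7a5 by 1.25 (adjusted p = 5.12e-09). Glycolysis and HIF-1 targets were lower in Rsv than in Eze for 29 of 35 genes (median -0.67), and genes of rRNA processing for 56 of 70 (median -0.36). Interferon-γ GTPases were higher in Rsv than in Eze for 18 of 21 genes, chemokines for 14 of 16, cytotoxic markers for 13 of 20 and quiescence genes for 19 of 26. The quiescence list thus had a median of 0.47 against Eze and -0.11 against Th17. Among cytokines, Il9 averaged 8.03 in Rsv and 10.42 in Eze (difference -2.39, adjusted p = 1.64e-10), while Ifng averaged 7.10 in Rsv and 4.17 in Eze (2.93, adjusted p = 3.23e-10).

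**Figure D5:**
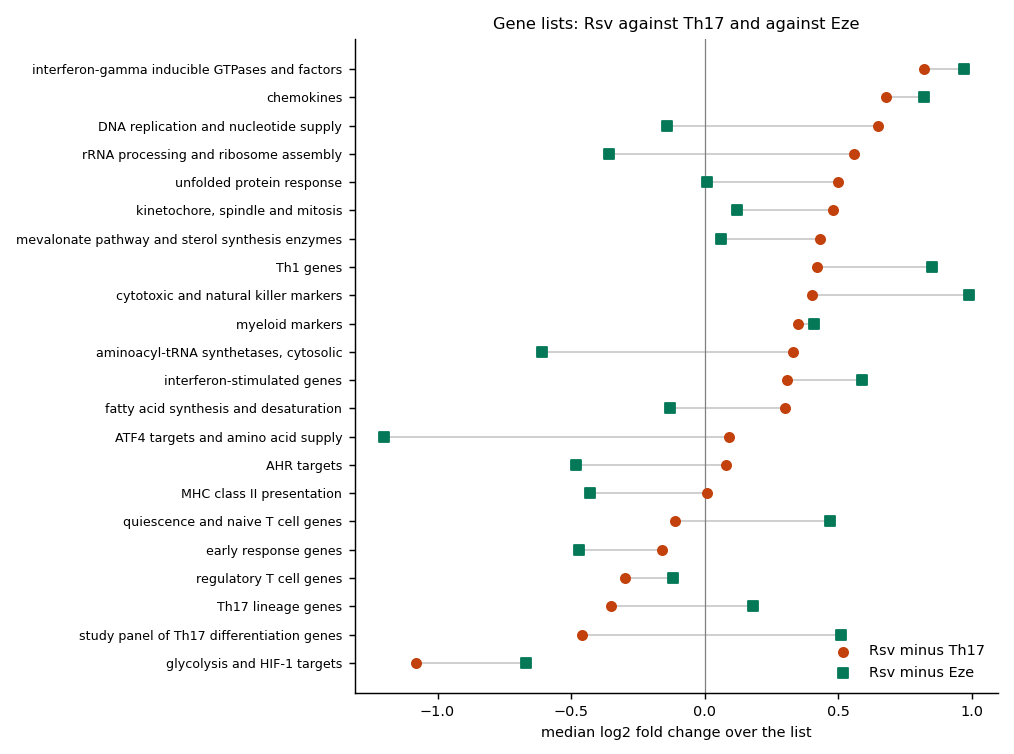
Median log2 fold change (horizontal axis) over gene lists for Rsv minus Th17 (circles) and Rsv minus Eze (squares), which share the 4 Rsv arrays. ATF4 targets stand at 0.09 against Th17 and -1.20 against Eze, HIF-1 targets at -1.08 and -0.67, and interferon-γ GTPases at 0.82 and 0.97.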

How the data were processed

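The deposited values were log2 signals of transcript clusters on the MoGene-2_0-st array, which the authors made with what the methods call a range migration algorithm and with quantile normalization. The software, its version and the genome build were not given in the sources used here. The 2 deposited tables held the same values (largest difference 0.0). The text of the study speaks of RNA sequencing, but the values are those of arrays.

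Of 41345 features, 33793 were main features and 31872 of these had 1 symbol, which gave 30920 genes. A gene with several features was read from its brightest. All 16 arrays were fitted with 1 mean per group in limma 3.58.1 (R 4.3.3) with empirical Bayes moderation, and p-values were adjusted by Benjamini-Hochberg over all genes with a threshold of 0.05. The fit was tested on simulated data. Errors of differences are standard errors of the fit, and the number of arrays limits the precision. Tables and figures were made with Python 3.11.15, pandas 2.3.3 and matplotlib 3.10.9.

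Genes were named by a rule: the 12 highest and 12 lowest called without overlap (predicted genes, Riken clones, small RNAs and receptor and immunoglobulin segments left out), every sterol enzyme and panel gene, in each other list up to 8 called members and any few against its majority, and lineage markers whatever their value. Some genes that the rule names, and lists that need them, are not reported here. The members and lists were chosen with earlier results of these data known. Promoters came from RefSeq on GRCm38.p6, whose gene starts or ends equalled those of the files for 17931 of 26682 matched genes (67.2%). Samples were grouped by the labels. The replicate numbers were not used to pair the arrays. Deviations from the group means correlated at r = -0.123 to 0.013 between same-numbered Rsv and Th17 arrays. For same-numbered Rsv and Eze arrays r was -0.002 to 0.134. The unnumbered Rsv array and Th17 array 2 reached 0.238, so these values cannot show whether the arrays were paired.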

Additional observations from a re-analysis of the deposited data

Results flagged for a closer look

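Among the genes named above, 626 groups of 4 arrays were searched for 1 array standing apart from the other 3, by a gap beyond Dixon's 95% critical value. This set 45 groups apart (7.19%), and chance alone does so for about 1 in 20. The unnumbered Rsv array held 16 of these and the unnumbered Th17 array 9, against 1 to 5 on each of the other arrays. The unnumbered Rsv array was also the one with the lowest share of genes above the background limit (14.4%), and the part of that in these values was not tested.

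The unnumbered Rsv array was lower than the other 3 for Cyp51 at 8.31, Fnta at 6.38, Ftsj3 at 7.77, Gclm at 6.86, Gvin1 at 8.87, Hspa5 at 7.97, Il1r1 at 7.09, Jak3 at 8.00, Nfe2l2 at 7.18, Nop56 at 9.63, Nop58 at 8.58, Rhoh at 6.74, Rras at 7.31, Smad3 at 6.28, Srf at 6.73 and Zbp1 at 8.38. Rsv array 1 was lower than the other 3 for Dhcr7 at 7.90, Il2rb at 9.78, Ldha at 6.45, Sc5d at 8.33 and Socs3 at 6.95. Rsv array 2 was lower than the other 3 for Insig2 at 5.70, and higher for Fdps at 9.13 and Nsdhl at 9.53. Rsv array 3 was higher than the other 3 for Hspa1a at 4.75. Cyp51, a sterol enzyme, read 8.88 to 8.91 on the other Rsv arrays.

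The unnumbered Th17 array was lower than the other 3 for Elovl1 at 7.03, Hlx at 5.48 and Wars at 7.10, and higher for Ccr6 at 6.32, Ezr at 8.84, Rhoa at 10.00, Tcf7 at 9.84, Tigit at 7.78 and Tiparp at 7.95. Th17 array 1 was lower than the other 3 for Atp5d at 7.56 and Rhog at 8.80, and higher for Gpam at 6.07 and Tcrg-V7 at 2.25. Th17 array 2 was lower than the other 3 for Csf2 at 4.62 and Rora at 7.07, and higher for Tbx21 at 6.29. Th17 array 3 was lower than the other 3 for Nfkbid at 6.88, and higher for Dusp6 at 8.31, Foxp3 at 6.87 and Tmem176a at 6.00. Foxp3 read 6.35 to 6.36 on the other Th17 arrays, and Tbx21 5.73 to 5.8, so that in both genes the array set apart lay nearer to the Rsv values.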

How the results depend on the processing

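Of 21 other settings tried, 20 gave counts of calls. The counts of genes higher and lower in Rsv than in Th17 (4193 and 3845) stayed within 1.5 times under all but the following. Centring each array on its median gave 2601 higher and 4670 lower, with the median of all genes at -0.02 in place of 0.06. Leaving out dim genes gave 1744 and 2200, from fewer genes tested. The methods' exact Mann-Whitney test called 4043 and 3841 genes unadjusted and 0 and 0 after adjustment, since 4 against 4 arrays cannot give a smaller p than a gene without overlap already has, while limma gave 11128 genes at an unadjusted p under 0.05. Against Eze (4685 and 4117), centring gave 2010 higher and 6796 lower, and leaving out dim genes 1084 and 2324. Leaving out each array in turn gave 3591 to 4134 higher and 3472 to 3822 lower against Th17, and 3629 to 4852 higher and 3453 to 4151 lower against Eze. With the replicate number as a block, 4147 genes were higher and 3847 lower against Th17 and 4582 and 4072 against Eze, and among the named genes it ended the calls of Lss, Stat4 and Xbp1 and made that of Klrd1.

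Of the 313 genes named, 16 lost their call when 1 array was left out, with adjusted p from 0.0503 to 0.148: Cyp1a1, Dusp5, Gss, Gzmk, Il2rg, Lrp8, Lss, Ncr1, Nfe2l2, Rpl39l, Rpl6, Srf, Stat4, Tbx21, Tfe3 and Xbp1. Of the named genes, 9 lost their call when the 8 arrays were fitted alone (Dusp5, Il2rb, Il2rg, Lpcat3, Lss, Srf, Stat4, Tfe3 and Xbp1), 8 with the numbered arrays alone (Gapdh, Nfe2l2, Rpl39l, Rpl6, Srf, Stat4, Tfe3 and Xbp1) and 4 with array weights (Dusp5, Srf, Stat4 and Xbp1). Centring ended the call of 22 named genes, all with small rises, such as Rhoa (0.25, adjusted p = 0.0551) and Tgfb1 (0.20, adjusted p = 0.0883). Hlx turned from -0.41 to 0.08 in the unnumbered arrays alone, and the cause was not tested. Leaving out dim genes made calls of Asns, Batf, Il1r1, Il2ra, Il7r, Klrd1 and Srebf1. Where signal is near the background limit, fold changes are compressed, and with 4 arrays a group and no label of separate cultures, the spread between mice is not known.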
